A study of Homo sapiens with 9 samples.

Results

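The 10 genes described here encode the enzymes that modify and crosslink collagen: the lysyl oxidases LOX, LOXL1, LOXL2, LOXL3 and LOXL4, the alpha subunits P4HA1 and P4HA2 of collagen prolyl 4-hydroxylase, and the lysyl hydroxylases PLOD1, PLOD2 and PLOD3. They were chosen by gene symbol, and all 10 were found among the 15983 genes of the deposited count table. RNA was sequenced from KGN, a line grown from a human ovarian granulosa cell tumour, labelled wild type. After a fast of 12 h the cells were kept for 72 h with solvent, with insulin at 0.5 µg/ml (the lower dose) or with insulin at 1 µg/ml (the higher dose), and each condition has 3 libraries. All libraries come from 1 cell line. Nothing in the labels says that replicates were grown apart, so the p-values below measure only how these libraries scatter, which may be technical scatter. The comparisons ask whether a high insulin dose alters gene expression in these cells.

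In the endoplasmic reticulum, prolyl 4-hydroxylase makes the hydroxyproline that keeps the triple helix folded, and the PLOD enzymes hydroxylate lysines that later carry sugars and crosslinks; both kinds of enzyme need iron, 2-oxoglutarate, oxygen and ascorbate. Outside the cell, the copper enzymes of the LOX family oxidise lysines of collagen and elastin so that the chains become joined to each other. In the ovary the matrix around the follicle is remodelled as it grows, and LOX has been studied there as a gene of granulosa cells.

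Library totals ran from 18965722 to 20446405 counts, so the members other than LOXL3 and LOXL4 rest on at least 1796 counts in each library, LOXL4 on 176 to 293 and LOXL3 on 22 to 54. Of 16 granulosa markers 15 passed the filter on low counts, with AMH at 6.88 ± 0.738 FPKM, FSHR at 1.47 ± 0.202 FPKM and CYP19A1 at 1.48 ± 0.192 FPKM (SD, n = 9). Also of the granulosa list, INHA had only 6 to 19 counts per library, HSD17B1 11 to 20 and NR5A2 11 to 26, and AMHR2 did not pass. CYP17A1 and LHCGR, of theca and luteal cells, had 1 count each over all 9 libraries. NR2F2 and PDGFRA of the theca and stroma list had 26867 and 9980. Of the markers of other cells, 7 of 11 for epithelium passed, led by KRT18 with 315485 counts while EPCAM had 7. The fibroblast and smooth muscle list had 7 of 11 above the filter. The blood list had 3 of 10, among them CD68 with 10442 and CD74 with 10431 counts over all libraries. The endothelial list had 2 of 7 and the theca and stroma list 3 of 6. The first library of the lower dose stood apart from the rest. It was the lowest of the 9 libraries for 17.8% and the highest for 19.8% of 12665 tested genes, against 7.71% to 13.5% and 7.84% to 14.03% in the other 8, so the main values that rest on it are also given without it.

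The genes fell into 3 ranges of abundance, compared here in FPKM (fragments scaled by library size and 1 fixed length per gene). That length was 5325 bases for P4HA2, 4442 for LOXL4 and 2821 for PLOD3. Their longest GENCODE transcripts have 3349, 3653 and 2920 bases, so levels and shares between genes depend on the length used. LOX, the founding crosslinking oxidase, was the most abundant at 581 ± 36.0 FPKM, followed by LOXL1, which acts on elastic fibres, at 461 ± 23.8 FPKM and LOXL2, an oxidase known for basement membrane collagen, at 176 ± 9.41 FPKM (SD, n = 9). The hydroxylases came next, with P4HA1 at 133 ± 12.2 FPKM, PLOD1 at 120.3 ± 4.54 FPKM, PLOD2 at 91.7 ± 5.83 FPKM and PLOD3 at 51.7 ± 2.34 FPKM, and with P4HA2 well below at 18.6 ± 1.37 FPKM (SD, n = 9). LOXL4 at 2.66 ± 0.403 FPKM and LOXL3 at 0.523 ± 0.133 FPKM were scarce (SD, n = 9). Between neighbours in this order, the ranges over the 9 libraries overlapped for P4HA1 (105 to 145 FPKM) and PLOD1 (115 to 128 FPKM). They also met at the edge for LOX (515 to 625 FPKM) and LOXL1 (435 to 520 FPKM). The ranges of all other neighbours were apart, as the plot of levels shows.

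**Figure D1:**
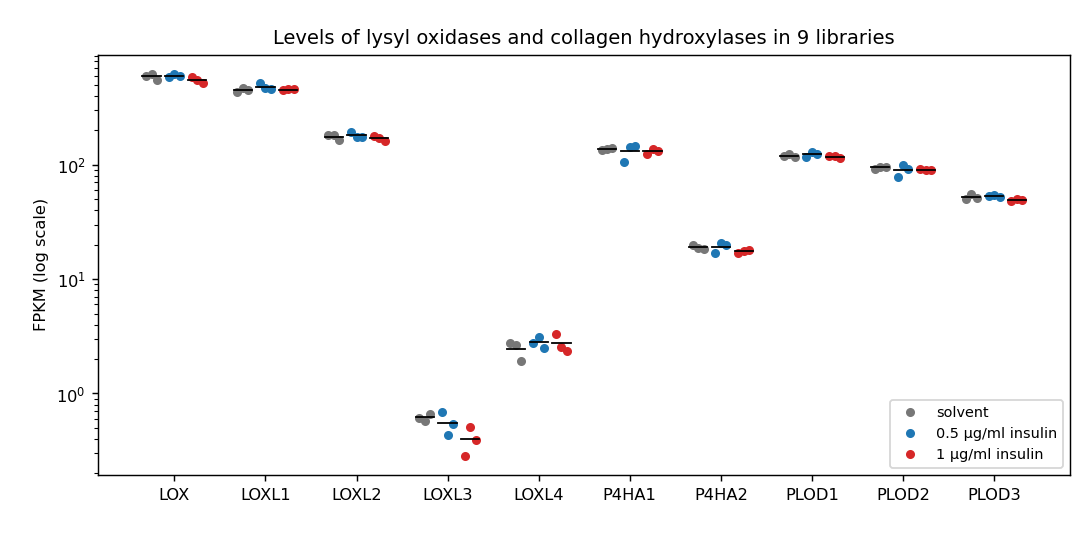
FPKM (log axis) of each gene in the 9 libraries, with solvent in grey, 0.5 µg/ml insulin in blue and 1 µg/ml insulin in red; points are libraries and black lines are group means (n = 3). LOX, LOXL1 and LOXL2 lie above 160 FPKM in every library, LOXL3 and LOXL4 below 4 FPKM, and the groups of each gene lie close together on this scale.

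Within each family the shares of the members differed by little over the conditions, though not all ranges overlapped. LOX supplied 48.5 ± 1.06% of the summed lysyl oxidase FPKM with solvent, 47.5 ± 2.14% at the lower dose and 46.6 ± 1.32% at the higher dose, and LOXL1 supplied 36.8 ± 1.35%, 38.0 ± 1.63% and 38.6 ± 1.48% in the same order (SD, n = 3 each). P4HA1 made up 87.9 ± 0.666%, 87.1 ± 0.994% and 88.2 ± 0.374% of the summed FPKM of both alpha subunits with solvent, the lower and the higher dose (SD, n = 3 each). Among the lysyl hydroxylases, PLOD2, which hydroxylates the ends of the collagen chains, supplied 35.5 ± 0.888%, 33.6 ± 1.79% and 35.2 ± 0.572% in that order (SD, n = 3 each). For each of these shares the ranges of the 3 groups overlapped. The share of PLOD1 did not overlap between solvent (44.04% to 45.57%) and the lower dose (45.62% to 47.03%). At the higher dose it was 45.14% to 45.96%. The small share of LOXL3 did not overlap between solvent (0.0450% to 0.0573%) and the higher dose (0.0233% to 0.0435%). The shares were not tested.

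The sequences at the transcription starts of 4 members are shown because P4HA1 and PLOD2 were both at their lowest in the library that stood apart while LOXL1 was at its highest, and LOX is a further known hypoxia target. These windows run from 250 bases before to 50 bases after the start, are 300 bases long and come from RefSeq on GRCh38.p14. All 4 are given 5′ to 3′ on the strand of the gene, LOX at chr5:122078210-122078509 (minus strand), P4HA1 at chr10:73096817-73097116 (minus), PLOD2 at chr3:146161135-146161434 (minus) and LOXL1 at chr15:73926212-73926511 (plus). Capitals mark each ACGTG or GCGTG on either strand (on the other strand CACGT or CACGC), the core letters bound by hypoxia-inducible factors.
LOX: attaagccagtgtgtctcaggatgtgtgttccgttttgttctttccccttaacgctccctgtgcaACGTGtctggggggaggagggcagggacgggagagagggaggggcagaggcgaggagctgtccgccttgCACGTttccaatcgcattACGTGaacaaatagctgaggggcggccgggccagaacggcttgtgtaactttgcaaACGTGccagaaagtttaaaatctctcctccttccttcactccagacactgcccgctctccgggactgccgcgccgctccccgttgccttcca
P4HA1: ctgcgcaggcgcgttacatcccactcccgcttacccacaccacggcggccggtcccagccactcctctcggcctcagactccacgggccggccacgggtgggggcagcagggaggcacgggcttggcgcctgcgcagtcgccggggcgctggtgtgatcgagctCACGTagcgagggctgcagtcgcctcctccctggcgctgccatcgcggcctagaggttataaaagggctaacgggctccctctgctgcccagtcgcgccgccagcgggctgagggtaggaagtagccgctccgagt
PLOD2: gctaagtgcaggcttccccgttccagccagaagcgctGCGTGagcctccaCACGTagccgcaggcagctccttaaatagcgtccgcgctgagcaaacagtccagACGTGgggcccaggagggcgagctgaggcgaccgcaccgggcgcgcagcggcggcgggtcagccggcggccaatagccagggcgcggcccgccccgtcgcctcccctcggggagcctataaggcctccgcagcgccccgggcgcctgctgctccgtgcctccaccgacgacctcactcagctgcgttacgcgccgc
LOXL1: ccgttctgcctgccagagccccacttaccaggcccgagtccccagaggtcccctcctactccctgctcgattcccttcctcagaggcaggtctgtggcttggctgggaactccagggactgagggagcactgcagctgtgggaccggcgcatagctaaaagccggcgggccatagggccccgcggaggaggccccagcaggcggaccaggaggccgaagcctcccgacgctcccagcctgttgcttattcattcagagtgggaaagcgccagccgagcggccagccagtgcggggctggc
The LOX window held 4 such matches, P4HA1 1, PLOD2 3 and LOXL1 0, where matches that overlap on opposite strands count separately. RefSeq windows were matched for 9 of the 10 members, all but LOXL2, and where a gene had several the one nearest the 5′ end of its GENCODE gene was read. Of these 9, LOX, P4HA1, PLOD1 and PLOD2 held a match, 4 in all, and 48.4% of 35116 such windows in the table held one, so these letters are common. A match is a run of letters and not a bound site. The 4 windows shown were picked after the levels were seen. In the library that stood apart, P4HA1 was 0.36 and PLOD2 0.23 below the mean of the others (log2), and LOXL1 0.21 above. LOX was 0.04 above, PLOD1, with 2 matches, 0.03 below and P4HA2, with 0, 0.12 below. Any link between matches and levels was not tested.

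LOX lies on chromosome 5 from 122063195 to 122078360 (hg38, GENCODE release 29; all positions below are from the same annotation). With solvent its libraries held 3182, 3303 and 2902 CPM, at the lower dose 3144, 3271 and 3199 CPM, and at the higher dose 3087, 2897 and 2716 CPM (CPM, counts scaled to a common library size by TMM, which also corrects for library composition). The higher-dose libraries were all below the lower-dose ones and overlapped with solvent. In RNA from whole cultures, fewer cells with the transcript and less of it per cell cannot be told apart. The log2 fold change was 0.03 ± 0.05 at the lower dose against solvent and -0.11 ± 0.05 at the higher dose against solvent (SE). Between the higher and the lower dose it was -0.14 ± 0.05 (SE; edgeR quasi-likelihood, unadjusted p = 0.0152, adjusted p = 0.850), a fold of 0.905 with a 95% interval from 0.837 to 0.979. Without the third solvent library the lower-dose value of LOX against solvent was -0.02.

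LOXL1 (chromosome 15, 73925989 to 73952137) had the smallest unadjusted p of the members at the lower dose. Its libraries held 1561, 1386 and 1371 CPM at the lower dose, against 1296, 1381 and 1321 CPM with solvent. The first lower-dose library stood above all others, and the other 2 lay within or just above the solvent range. The log2 fold change was 0.11 ± 0.05 (SE; edgeR, unadjusted p = 0.0377, adjusted p = 0.792), and without that library it was 0.05 ± 0.04 (SE; unadjusted p = 0.227). At the higher dose LOXL1 was narrowly spread at 1343, 1349.8 and 1349 CPM, below every lower-dose library, with a log2 fold change of -0.10 ± 0.05 (SE) against the lower dose and 0.02 ± 0.05 (SE) against solvent. Without the first lower-dose library the value of LOXL1 against the lower dose was -0.03 ± 0.04 (SE). Antisense transcript LOXL1-AS1 covers 9.21% of the exonic bases of LOXL1; the strand setting of the counting is not given in the sources used here, so reads of such pairs cannot be told apart.

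LOXL2 (chromosome 8, 23297189 to 23425328) held 677, 673 and 612 CPM with solvent, 727, 647 and 655 CPM at the lower dose, and 656, 638 and 599.6 CPM at the higher dose. The 3 groups overlapped, and the first lower-dose library was again the highest of the 9. The log2 fold change against solvent was 0.05 ± 0.05 at the lower dose and -0.05 ± 0.05 at the higher dose (SE). The lower-dose value was -0.01 without that library.

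The scarce members had wide intervals. LOXL3 (chromosome 2, 74532414 to 74555690) had 22, 40 and 31 counts at the higher dose, against 45, 45 and 53 counts with solvent, and the groups did not overlap. Its log2 fold change of -0.64 ± 0.25 (SE) was the largest in size of any member, a fold of 0.644 with a 95% interval from 0.446 to 0.929 (edgeR, unadjusted p = 0.0210, adjusted p = 1.00). At the lower dose the counts were 54, 33 and 43, which overlapped with solvent. Exons of HTRA2 and DOK1 on the opposite strand cover 19.3% of the exonic bases of LOXL3. LOXL4 (chromosome 10, 98247690 to 98268250) held 12.2, 11.8 and 8.58 CPM with solvent, 12.5, 13.8 and 11.2 CPM at the lower dose, and 14.7, 11.3 and 10.4 CPM at the higher dose, and all groups overlapped. Its log2 fold change against solvent was 0.20 ± 0.14 at the lower and 0.16 ± 0.14 at the higher dose (SE).

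The alpha subunits of prolyl 4-hydroxylase carry the catalytic site of the enzyme. P4HA1 (chromosome 10, 73007217 to 73096974) was even in the solvent libraries at 395, 401 and 405 CPM and most uneven at the lower dose at 309, 416 and 425 CPM, with 358, 396 and 383 CPM at the higher dose. The first lower-dose library was the lowest of all 9, and the other 2 of that dose were the highest. The log2 fold change at the lower dose against solvent was -0.06 ± 0.08 (SE) with all libraries and 0.07 ± 0.04 (SE) without that one, and neither passed (edgeR, adjusted p = 0.894 and 0.797). At the higher dose against solvent it was -0.08 ± 0.08 (SE). P4HA2 (chromosome 5, 132191838 to 132295315) held 89.9, 93.1 and 95.6 CPM at the higher dose, against 106, 100.2 and 96.5 CPM with solvent. The 2 groups were just apart, at a log2 fold change of -0.12 ± 0.06 (SE; edgeR, unadjusted p = 0.0687, adjusted p = 1.00). At the lower dose P4HA2 held 91.6, 111 and 106 CPM, with a log2 fold change of 0.03 ± 0.06 (SE) against solvent, and -0.01 without the third solvent library or -0.03 without the second lower-dose one. The higher dose against the lower gave -0.15 ± 0.06 (SE; edgeR, unadjusted p = 0.0284, adjusted p = 0.850), and without the first lower-dose library -0.22 ± 0.05 (SE; edgeR, unadjusted p = 0.000377, adjusted p = 0.197), the smallest adjusted p of any member under any alternative.

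Of the lysyl hydroxylases, PLOD1 (chromosome 1, 11934205 to 11975538), which acts on the helical part of collagen, varied least, with a coefficient of variation of 3.94% over the 9 libraries. It held 374, 387 and 361 CPM with solvent, 368, 401 and 391 CPM at the lower dose and 369, 369.9 and 356 CPM at the higher dose, with all groups overlapping. PLOD2 (chromosome 3, 146069440 to 146163653) held 355, 345 and 349 CPM at the higher dose, against 358, 373 and 372 CPM with solvent. The groups did not overlap, yet the log2 fold change was only -0.07 ± 0.06 (SE; edgeR, unadjusted p = 0.231, adjusted p = 1.00). At the lower dose PLOD2 held 308, 384 and 355 CPM, so that the first library was the lowest and the second the highest of the 9. Its log2 fold change against solvent was -0.08 ± 0.06 (SE), and 0.01 ± 0.04 (SE) without the first library. PLOD3 (chromosome 7, 101205977 to 101218420), which also adds sugars to hydroxylysine, held 136, 142 and 138 CPM at the higher dose. It held 151, 153 and 148 CPM at the lower dose and 143, 157 and 144 CPM with solvent, so that the higher-dose libraries were below all the others. The log2 fold change of PLOD3 was -0.12 ± 0.05 (SE) for the higher against the lower dose (edgeR, unadjusted p = 0.0231, adjusted p = 0.850) and -0.09 ± 0.05 (SE) against solvent (unadjusted p = 0.0610, adjusted p = 1.00). Opposite-strand exons of ZNHIT1 cover 7.56% of its exonic bases.

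**Figure D2:**
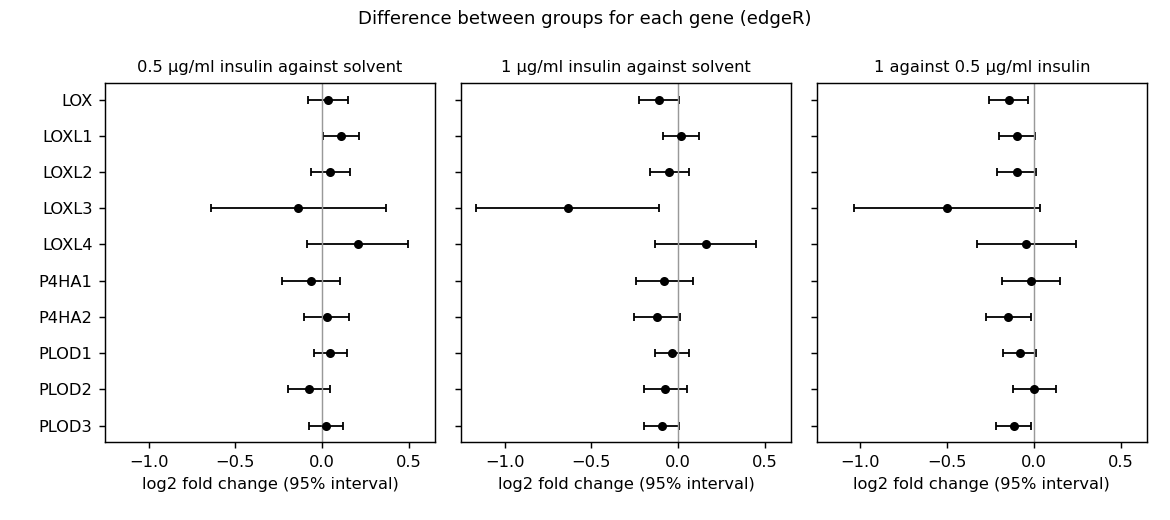
Log2 fold change of each gene (points) with its 95% interval (bars) from edgeR, for the lower dose against solvent (left), the higher dose against solvent (middle) and the higher against the lower dose (right), from all 9 libraries. At the higher dose 8 of 10 points lie below 0 against solvent and 9 of 10 against the lower dose, and most intervals other than those of LOXL3 and LOXL4 are narrow and include 0.

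Counted over the members, none passed the test in any comparison. At the lower dose against solvent 0 of 10 were called (0% of all genes), with 7 above 0 and a median log2 fold change of 0.03, where all 12665 tested genes had a median of 0.00447 and 51.9% above 0. Without the third solvent library 5 members were above 0 and 5 below, with a median of -0.0022, and without the second solvent library the median was 0.07. LOXL1, 1 of 10, had an unadjusted p under 0.05, against 6.08% of all genes (2.87% higher), and the groups were free of overlap for 0 members, against 10.7% of all genes. Without the first lower-dose library 3 members did not overlap (LOXL3 lower, P4HA1 and PLOD1 higher), against 22.2% of all genes. At the higher dose against solvent 0 of 10 were called, 8 lay below 0 and the median was -0.08, with a median of -0.000214 and 49.8% above 0 over all genes. The groups did not overlap for 4 members, all lower (LOXL3, P4HA2, PLOD2 and PLOD3), against 7.73% of all genes (3.92% lower), and 1 (LOXL3) had an unadjusted p under 0.05, against 2.35% (1.26% lower). That count was 3 without the third solvent library, with the replicate block or with no count filter. It was 2 with DESeq2, with the 2-group fit or without the first solvent library. Over the main fit and the alternatives, 173 to 489 genes of the whole table had an unadjusted p under 0.05 in this comparison. With 1 library left out in turn, 4 to 7 members were lower without overlap, against 7.64% to 10.8% of all genes, and at most 1 was higher. The 7 were without the third solvent library, against 18.0% of all genes (8.99% lower). For the higher against the lower dose 0 of 10 were called, 9 lay below 0 and the median was -0.10, with -0.00116 and 49.5% above 0 over all genes. There, 3 members did not overlap (LOX, LOXL1 and PLOD3), against 12.2% of all genes (6.31% lower), and 3 (LOX, P4HA2 and PLOD3) had an unadjusted p under 0.05, against 5.64% (3.19% lower). Without the first lower-dose library all 10 lay below 0 in this comparison, against 6312 of all 12754 genes tested in that run. In that run 5 members had an unadjusted p under 0.05. Then 7 did not overlap, all lower, against 26.1% of all genes (13.2% lower). With any other library left out, 3 or 4 did not overlap, against 19.9% to 24.7% of all genes (10.2% to 12.6% lower). In those runs 1 to 3 members had an unadjusted p under 0.05. Over the main fit and the alternatives, which include each run with a library left out, 454 to 950 genes of the whole table had such a p. The counts without a library were chosen after the data were seen. The members share libraries and several vary together, and the 3 comparisons share groups, so these counts are not independent of each other.

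Over the whole table, edgeR called 0 of 12665 genes in each comparison, with 770, 298 and 714 at an unadjusted p under 0.05 for the lower dose against solvent, the higher dose against solvent and the higher against the lower dose. DESeq2 also called 0, with 573, 173 and 487 at an unadjusted p under 0.05. The test over all 3 groups called 0 genes (561 at an unadjusted p under 0.05, or 4.43%) and DESeq2 called 1 (381 at an unadjusted p under 0.05), which was not a member. In that test LOX had the smallest p of the members (unadjusted p = 0.0394, adjusted p = 0.982), followed by PLOD3 (unadjusted p = 0.0541) and LOXL3 (unadjusted p = 0.0545). The 95% intervals rest on the scatter of these libraries, which may be technical, so they do not bound an effect over separate cultures. In the comparisons with solvent, the 8 members other than LOXL3 and LOXL4 had intervals between 0.840-fold (P4HA2, higher dose) and 1.16-fold (LOXL1, lower dose). The intervals of LOXL4 reached 1.41-fold and those of LOXL3 0.446-fold.

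The spread over all 9 libraries, which includes differences between groups, was wider than counting error for every member. The coefficient of variation over the 9 libraries was 6.42% for LOX, where counting alone gives 0.404%, and 9.09% for P4HA1, where it gives 1.14%. For LOXL3 it was 25.6% against 16.3% from counting, the closest of any member. Within solvent alone LOXL3 had 7.53%, below that counting value, with 23.5% at the lower and 28.8% at the higher dose. Within groups P4HA1 had a coefficient of variation of 16.9% at the lower dose and 1.31% with solvent, and PLOD2 11.0% at the lower dose and 2.19% with solvent. At the higher dose these were 5.08% for P4HA1 and 1.35% for PLOD2.

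The scatter of the lower dose lay mainly in its first library, as the plot of each library against the mean shows. There P4HA1 was 0.36 below the mean of the other 8 libraries on the log2 scale, PLOD2 0.23 below and P4HA2 0.12 below, while LOXL1 was 0.21 above, LOXL2 0.17 above and LOX 0.04 above. The spread of such differences over all genes in that library had an SD of 0.22. PLOD1 and PLOD3 stood near the mean of the others, at -0.03 and 0.06.

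**Figure D3:**
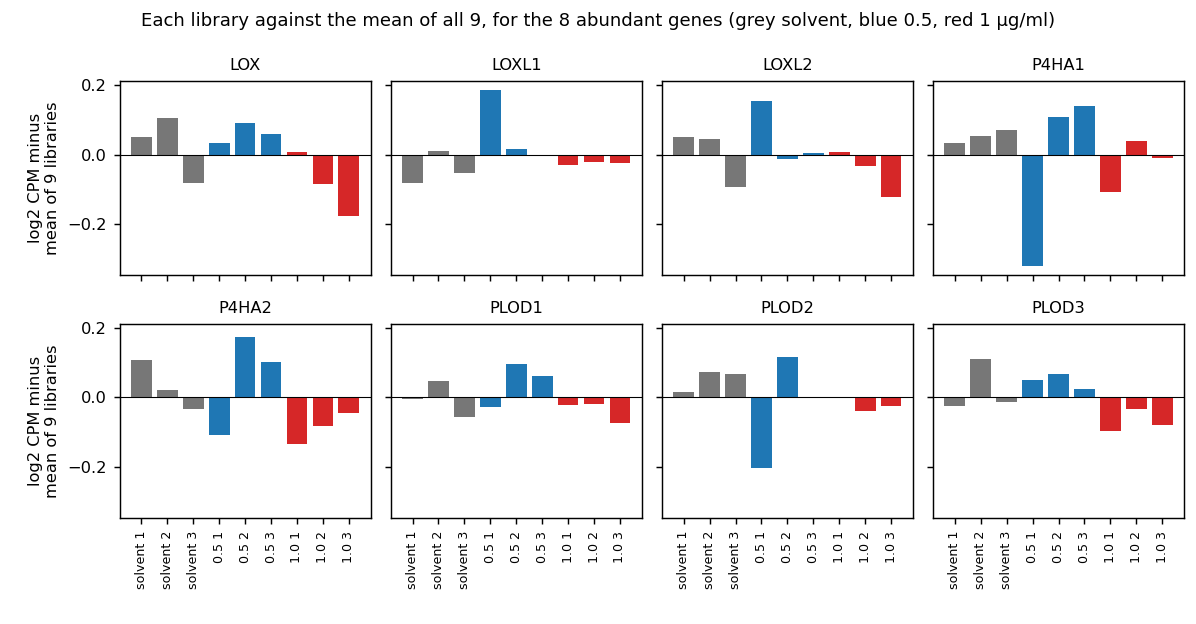
Log2 CPM of each library minus the mean of all 9 (y axis) for the 8 abundant genes; bars are single libraries in the order solvent 1 to 3, 0.5 µg/ml 1 to 3 and 1 µg/ml 1 to 3. The first library at 0.5 µg/ml is the lowest for P4HA1 and PLOD2 and the highest for LOXL1 and LOXL2.

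Most listed genes of the hypoxia response outside the 10 members were low in the same library. P4HA1, P4HA2, PLOD2 and LOX are known targets of hypoxia-inducible factor. Of these, P4HA1 and PLOD2 were at their lowest there, P4HA2 was 0.12 below the mean of the others but not at its lowest, and LOX was 0.04 above. In the first lower-dose library 15 of 17 other tested targets were below the mean of the remaining libraries. Of the 17, 10 were the lowest of all 9 there, against 17.8% of all genes. PGK1, an enzyme of glycolysis, held 604 CPM there and 659 to 808 CPM elsewhere, LDHA, lactate dehydrogenase, 1407 CPM against 1553 to 1754 CPM, and BNIP3, a mitophagy receptor, 125 CPM against 140 to 176 CPM; these 3 were chosen after their values were seen. In the other 2 lower-dose libraries 16 and 15 of the 17 were above the mean of the others. The median of this log2 difference over all tested genes was 0.002 in each lower-dose library. Of 19 tested collagen and elastic fibre genes 13 were above the mean in the first library and 6 were the highest of the 9, against 19.8% of all genes. Of 7 tested markers of fibroblasts and smooth muscle, 6 also lay above the mean there. The summed level of that list was 376 FPKM in that library, against 288 and 299 FPKM in the others of that dose. It was 304 to 333 FPKM with solvent and 317 to 358 FPKM at the higher dose. ACTA2 alone supplied 267 FPKM of the sum there, against 190 to 251 FPKM in the other libraries, so the sum mostly follows this gene. MYH11, of smooth muscle, had 12 counts over all libraries. The part of these markers in the values of LOXL1 and LOXL2 was not tested.

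**Figure D4:**
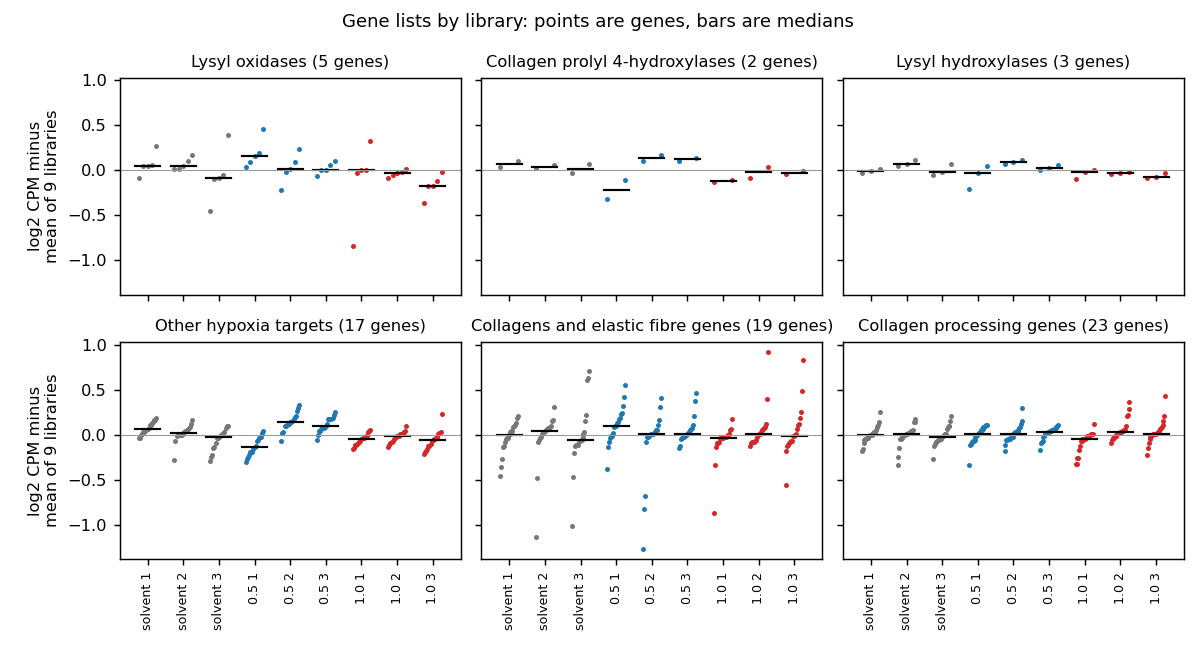
Log2 CPM minus the mean of the 9 libraries (y axis) for the tested genes of 6 lists in each library; points are genes, sorted by value, and bars are medians. In the first library at 0.5 µg/ml the prolyl 4-hydroxylases and the other hypoxia targets lie low and the lysyl oxidases high, while the other libraries at that dose show medians of the hypoxia targets above 0.

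Members varied together across the 9 libraries only loosely. Of 45 pairs, 7 had an exact permutation p under 0.05 for Pearson's r, and none passed Benjamini-Hochberg adjustment over the 45 (smallest adjusted p = 0.251; two-sided). LOX and PLOD1 had r = 0.83 (exact permutation p = 0.00651, adjusted p = 0.251) and rho = 0.83 (exact permutation p = 0.00827, adjusted p = 0.311), and r = 0.82 without the 2 libraries farthest from the median of LOX. P4HA1 and PLOD2 had r = 0.84 (exact permutation p = 0.0159, adjusted p = 0.251) and rho = 0.68 (exact permutation p = 0.0503, adjusted p = 0.323). Their r was 0.45 without the 2 libraries farthest from the median of P4HA1, so the relation rests on those libraries. LOXL1 and P4HA1 had r = -0.72 (exact permutation p = 0.0881, adjusted p = 0.366) but rho = 0.08 (exact permutation p = 0.843, adjusted p = 0.990). Their r was 0.45 without the 2 libraries farthest from the median of LOXL1, so the negative r rests on those libraries.

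Searching 11511 genes of at least 2 CPM, the gene whose log2 CPM ran most like LOX over the 9 libraries was C3, complement component 3 (r = 0.97, rho = 0.97). It was HSPB1 for LOXL1 (r = 0.98), ZC3H12A for LOXL2 (r = 0.98), DDX59 for P4HA1 (r = 0.97), VRK3 for P4HA2 (r = 0.93), DEPP1 for PLOD1 (r = 0.97), RABL3 for PLOD2 (r = 0.96) and LGALS3BP for PLOD3 (r = 0.95). For LOXL4 it was MTRF1L (r = 0.95). Each is the highest of 11511 correlations over 9 libraries that share a normalization, so they are given as a description with no p. Without the first lower-dose library r was 0.89 for LOXL1 with HSPB1, 0.89 for P4HA1 with DDX59 and 0.88 for PLOD2 with RABL3.

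The partners and substrates of these enzymes gave the background of the pathway. P4HB, protein disulphide isomerase and the beta subunit of prolyl 4-hydroxylase, was present at 658 ± 19.2 FPKM, and the third alpha subunit gene, P4HA3, at 7.45 ± 0.582 FPKM (SD, n = 9). The collagen chaperone gene SERPINH1 stood at 261 ± 10.0 FPKM and COLGALT1, which adds galactose to hydroxylysine, at 68.0 ± 1.68 FPKM (SD, n = 9). Of the substrates, COL1A1 reached 1524 ± 94.1 FPKM, COL3A1 663 ± 49.7 FPKM and COL1A2 525 ± 19.2 FPKM (SD, n = 9), while ELN, elastin, had 9 counts over all libraries and was not tested. Of 23 tested genes of collagen processing, 0 were called in any comparison, and their median log2 fold change was 0.03 at the lower dose and -0.01 at the higher dose against solvent. FKBP14, a prolyl isomerase, had the smallest p of this list in the 3-group test and held 45.2 ± 0.475 CPM at the lower dose, against 51.0 ± 2.14 CPM with solvent (SD, n = 3 each; edgeR, log2 fold change -0.17, adjusted p = 0.764). BMP1, which trims procollagen and activates LOX, was next at 128 ± 6.13 CPM at the higher dose, against 141 ± 3.57 CPM at the lower dose (SD, n = 3 each; edgeR, adjusted p = 0.850).

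Of 19 tested collagen and elastic fibre genes, 0 were called in any comparison. The list had 12 of 19 above 0 and a median log2 fold change of 0.01 for the lower dose against solvent, 11 below 0 and -0.03 for the higher dose against solvent, and 15 below 0 and -0.08 for the higher against the lower dose, where 49.5% of all genes were above 0. Without the first lower-dose library 12 were below 0 with a median of -0.02 for the lower dose against solvent, and 13 were below 0 with a median of -0.04 for the higher against the lower dose. COL1A1 was at 8541 ± 255 CPM at the higher dose, against 9385 ± 748 CPM at the lower dose (SD, n = 3 each; log2 fold change -0.14 ± 0.06, SE; edgeR, adjusted p = 0.850). The first lower-dose library held 10244.5 CPM of COL1A1 and the others of that dose 9035 and 8876 CPM, and without the first the log2 fold change was -0.07 ± 0.04 (SE). COL1A2 and COL3A1 were at -0.06 ± 0.05 and 0.06 ± 0.07 in the same comparison (log2 fold change, SE), and at -0.03 ± 0.04 and 0.02 ± 0.06 without that library. The crosslinking transglutaminase TGM2 was at 77.2 ± 2.62 CPM at the higher dose, against 85.8 ± 4.43 CPM at the lower dose (SD, n = 3 each, edgeR adjusted p = 0.850). FBLN5, a partner of LOXL1 in elastic fibres, was at 1.79 ± 0.313 CPM, against 2.31 ± 0.134 CPM (SD, n = 3 each, edgeR adjusted p = 0.852). For the lower dose against solvent its log2 fold change was 0.62 ± 0.23 (SE, edgeR unadjusted p = 0.0159, adjusted p = 0.764). FBLN5 rests on 27 to 48 counts per library.

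The oxygen sensors that share the cofactors of the hydroxylases were measured beside them. HIF1A stood at 1432 ± 59.9 CPM at the higher dose, against 1409 ± 182 CPM with solvent, and EGLN1, the main oxygen-sensing prolyl hydroxylase, at 98.5 ± 3.32 CPM, against 100.3 ± 1.91 CPM (SD, n = 3 each). The lower-dose libraries held 1405, 1270 and 1268 CPM of HIF1A. Without the first of these its log2 fold change was -0.15 ± 0.07 for the lower dose against solvent (SE, edgeR adjusted p = 0.724). For the higher against the lower dose it was then 0.17 ± 0.07 (SE, edgeR adjusted p = 0.577). EGLN3 was scarce at 3.82 ± 0.821 CPM at the higher dose, against 4.30 ± 0.0287 CPM with solvent (SD, n = 3 each). EPAS1, which encodes HIF-2 alpha, was at 150.0 ± 3.73 CPM at the higher dose, against 164 ± 5.63 CPM at the lower dose and 159.7 ± 2.34 CPM with solvent, and the higher-dose libraries were below all the others (SD, n = 3 each; adjusted p = 0.850 against the lower dose and 1.00 against solvent, edgeR). Of the 8 tested genes of this list 0 were called. Of the 17 other hypoxia targets 0 were called with all libraries, and 15 of 17 lay below 0 at the higher dose against solvent with a median of -0.07; a low hypoxia list at this dose was already known from earlier results of these data. For the higher against the lower dose 15 of 17 were also below 0, with a median of -0.10, and without the first lower-dose library 16 were, with a median of -0.21. NDRG1, a stress-response gene, then passed, at -0.36 ± 0.05 (SE, edgeR adjusted p = 0.00570), 1 of 2 genes called of 12754 in that run. With all libraries it was at -0.22 ± 0.09 (SE, edgeR adjusted p = 0.850). The first lower-dose library was left out after the data were seen. In it NDRG1 was the lowest of all 9 and 15 of 17 targets lay below the mean of the others. Leaving it out raises most lower-dose values of this list, so the pass and the median of -0.21 are not independent of that choice. NDRG1 held 123, 128 and 131 CPM at the higher dose, against 117, 165 and 163 CPM at the lower dose. VEGFA held 199 ± 17.3 CPM at the higher dose, against 216 ± 29.2 CPM with solvent, NDRG1 128 ± 4.18 CPM against 139 ± 8.77 CPM, and CA9 49.99 ± 3.34 CPM against 52.3 ± 1.44 CPM (SD, n = 3 each). Of 9 tested genes for supply of iron, copper, ascorbate and 2-oxoglutarate 0 were called. The smallest 3-group p in this list belonged to IDH2, which makes 2-oxoglutarate, at 31.6 ± 0.533 CPM at the higher dose, against 28.96 ± 1.53 CPM with solvent, and the transferrin receptor gene TFRC at 93.5 ± 5.62 CPM, against 88.9 ± 10.0 CPM (SD, n = 3 each).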

How the data were processed

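The authors deposited raw counts per gene symbol and FPKM for the same genes in 9 libraries of 3 groups. The submitters' processing notes name Trimmomatic, HTSeq and DESeq, without versions, and hg38; which aligner, annotation and strand setting were used is not given in the sources used here. FPKM as deposited are the counts rescaled by library total and 1 fixed length per gene (11053 genes checked), so they are no second measurement; they served for levels between genes and as an alternative. Counts were filtered with filterByExpr (minimum count 10, minimum total 15), scaled by TMM and fitted in edgeR 4.0.16 over all 9 libraries with the two-sided quasi-likelihood F-test and Benjamini-Hochberg adjustment over 12665 genes. Calls needed an adjusted p under 0.05. The SE of a fold change came from its F statistic, and log2 CPM for likeness used a prior count of 2. All 10 members passed the filter. Depth was 18965722 to 20446405 counts per library. No 2 libraries of a group agreed within counting noise (chi-square per degree of freedom 2.17 to 8.19), so none was merged as a repeat; whether they are separate cultures is not known. Named genes were the 10 members, pathway genes listed by name, the 2 of smallest 3-group p in each of 5 lists, and the gene most like each member; that of LOXL3 is not reported here. Alternatives were DESeq2 1.42.0, limma 3.58.1 on log2(FPKM + 1) and log2(FPKM + 0.1), RLE scaling, other filters, 2-group fits, a replicate block and each library left out. Exon overlaps used GENCODE 29. The fit was tested on simulated data. Members and lists were chosen with earlier results of these data known.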

Additional observations from a re-analysis of the deposited data

Results flagged for a closer look

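For LOX and PLOD3, and for no other member, every library of the lower dose lay above the solvent mean and every library of the higher dose below it, or the reverse. For LOX the log2 fold change of the higher against the lower dose was -0.14 (edgeR, adjusted p = 0.850). For PLOD3 it was -0.12 (edgeR, adjusted p = 0.850), and the lowest of its lower-dose libraries, at 148.25 CPM, was barely above the solvent mean of 148.22 CPM. The difference between the doses did not pass the test for either gene. This pattern was looked for only in the members, and its share among all tested genes was not counted. Whether it is unusual was therefore not tested, and it cannot be read as a trait of LOX and PLOD3.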

How the results depend on the processing

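No member passed the threshold under any alternative run. Of 140 member values per comparison over all alternatives, 132 at the lower dose against solvent, 139 at the higher dose against solvent and 130 for the higher against the lower dose kept their direction. The smallest adjusted p was 0.520, 0.999 and 0.197 in the same order. P4HA1 for the higher against the lower dose turned to 0.0119 and 0.0121 (log2) on FPKM with pseudocounts of 1 and 0.1; the cause was not tested. Leaving out 1 library at a time, log2 fold changes at the lower dose against solvent ran from -0.018 to 0.075 for LOX, -0.0077 to 0.078 for LOXL2, -0.33 to 0.012 for LOXL3, -0.14 to 0.071 for P4HA1, -0.033 to 0.10 for P4HA2, -0.15 to 0.0072 for PLOD2 and -0.00090 to 0.067 for PLOD3. At the higher dose against solvent LOXL1 ran from -0.0031 to 0.043. For the higher against the lower dose LOXL4 ran from -0.20 to 0.056, P4HA1 from -0.15 to 0.067 and PLOD2 from -0.080 to 0.077. With no count filter 6, 3 and 4 genes were called over the whole table (lower dose against solvent, higher against solvent, higher against lower) and 8 over 3 groups, and DESeq2 called 1 over 3 groups. With 1 library left out the calls ran from 0 to 1 (1 without the third lower-dose library), 0 to 0, and 0 to 2 (2 without the first and 1 without the third lower-dose library). Deviations of same-numbered libraries had r from -0.01 to 0.16, those of other numbers from -0.11 to 0.06. Between solvent and the higher dose the same-numbered pairs were all positive, at r from 0.04 to 0.16. They ran from -0.01 to 0.02 between solvent and the lower dose and from -0.01 to 0.05 between the doses. What same-numbered libraries share is not given in the labels and was not tested. A fit with the replicate block called 0 genes in each comparison and 0 over 3 groups. Depth limits LOXL3, at 22 to 54 counts per library, most, and LOXL4, at 176 to 293, next.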
